A study of Mus musculus with 6 samples.

Results

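The 41 genes of S phase and mitosis described here were chosen by name, 18 for DNA replication and its control and 23 for mitosis, and 39 of them had a probe named for them among the 19057 named genes of the arrays. All 18 replication genes and 21 of the 23 mitosis genes were measured. The mitosis genes Ccnb1 (cyclin B1) and Tacc3 (a spindle microtubule protein) had no named probe and were not analysed here, and the same held for Mki67, the gene of the Ki67 protein, which is not among the 41. Each gene was read on the probe with the highest mean over the 6 arrays, because 22 of the 39 genes had more than 1 probe and the 39 genes had 81 probes together. The deposited signals, normalized by the authors, are given on the log2 scale, and a difference is the mean of the free Ub mice minus the mean of the PBS mice on that scale.

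The arrays held intestinal RNA of 6 male C57 mice, 1 Illumina MouseWG-6 v2 array per mouse. By the labels the mice were 4 weeks old, received total body radiation of 7 Gy, were given PBS (3 mice, the controls) or free ubiquitin (free Ub, 3 mice) afterwards, and gave intestine 3.5 days after the radiation. The study's text gives another age, time and order of injection for these experiments, and no comparison below uses them. All 6 mice were irradiated, so the arrays hold no unirradiated intestine, and whole tissue was taken, in which fewer dividing cells and less RNA per dividing cell cannot be told apart. The tissue label was checked on 9 markers of intestinal epithelium. Vil1 (villin of the brush border) lay between 12.49 and 12.87 on the 6 arrays and Lgals4 (galectin-4) between 13.86 and 14.26, whereas the probe of Fabp2 (a fatty acid carrier of enterocytes) lay near the floor of the table, between 0.00 and 1.78.

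Before a cell copies its DNA, the Mcm2 to Mcm7 helicase is loaded onto replication origins, and the E2F transcription factors switch on the helicase, the nucleotide-making enzymes and the E cyclins. After S phase the complexes that hold B-Myb (Mybl2) and Foxm1 switch on the genes that condense chromosomes, build the spindle and separate the sister chromatids. In the intestinal epithelium most dividing cells lie in the crypts, which radiation depletes and which surviving stem cells rebuild in the days that follow.

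The promoter windows of 4 of the genes are shown because the genes of each stage are known to share short sequence elements. Each window is the 250 bases before the annotated start in RefSeq (GRCm38.p6), written 5′ to 3′ on the strand of the gene. Mcm6, a helicase subunit, lies on the minus strand (chr1:128359706-128359955), as do Cdk1, the kinase of mitotic entry (chr10:69352913-69353162), and Cdc20, the activator of the anaphase-promoting complex (chr4:118437344-118437593). Plk1, a mitotic kinase, lies on the plus strand (chr7:122159185-122159434). Capitals mark matches to an E2F element (TTTCGCGC, TTTGGCGC, TTTCCCGC or TTTGCCGC), a CCAAT box (CCAAT) or a cell cycle homology region, CHR (TTTGAA or TTCGAA), each searched on both strands.
Mcm6: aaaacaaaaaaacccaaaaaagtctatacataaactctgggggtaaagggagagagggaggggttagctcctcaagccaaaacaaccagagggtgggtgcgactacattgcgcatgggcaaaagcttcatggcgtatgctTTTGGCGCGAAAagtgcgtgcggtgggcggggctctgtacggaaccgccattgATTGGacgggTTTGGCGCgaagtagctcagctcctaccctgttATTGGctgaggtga
Cdk1: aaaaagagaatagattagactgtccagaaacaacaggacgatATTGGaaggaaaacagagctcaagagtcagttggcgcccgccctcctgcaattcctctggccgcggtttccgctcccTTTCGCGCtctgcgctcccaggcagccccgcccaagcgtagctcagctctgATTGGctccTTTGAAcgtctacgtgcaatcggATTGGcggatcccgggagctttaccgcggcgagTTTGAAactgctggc
Cdc20: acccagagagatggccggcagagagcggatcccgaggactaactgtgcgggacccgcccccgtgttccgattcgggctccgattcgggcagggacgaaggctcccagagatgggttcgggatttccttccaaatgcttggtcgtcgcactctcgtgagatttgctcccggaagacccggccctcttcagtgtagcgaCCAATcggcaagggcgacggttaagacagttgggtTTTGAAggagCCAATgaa
Plk1: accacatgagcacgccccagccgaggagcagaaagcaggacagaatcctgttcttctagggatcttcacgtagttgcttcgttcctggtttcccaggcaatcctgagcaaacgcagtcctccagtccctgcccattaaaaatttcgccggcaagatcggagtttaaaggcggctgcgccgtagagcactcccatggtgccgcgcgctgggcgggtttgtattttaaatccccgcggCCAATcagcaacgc
The Mcm6 window held 3 E2F matches, of which the matches 110 to 103 and 106 to 99 bases before the start overlap each other on opposite strands. The Cdk1 window held all 3 kinds of element, with a CHR match ending 10 bases before the start and another ending 66 bases before it. In the Cdc20 window a CHR match lay between 2 CCAAT boxes, and in the Plk1 window the only match was a CCAAT box 14 to 10 bases before the start.

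A window was given for 15 replication genes and 18 mitosis genes. An E2F match was found in 5 of the 15 replication windows (33.3%), in 1 of the 18 mitosis windows (5.56%) and in 2.16% of the windows of all 27025 genes given. A CHR match together with a CCAAT box was found in 8 of the 18 mitosis windows (44.4%), in 2 of the 15 replication windows (13.3%) and in 7.93% of all windows. A CCAAT box, with or without a CHR match, was common everywhere, at 72.2% of the mitosis windows, 60% of the replication windows and 37.5% of all windows. These are matches of letters and no measurement of binding.

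No shift of the S phase and mitosis genes as a group was seen with free Ub, and 3 mice per group are too few to exclude one. Between mice of a group, the median deviation of the genes from their own means had an SD of 0.218 (replication) and 0.306 (mitosis). The median difference was -0.05 over the 18 replication genes and 0.02 over the 21 mitosis genes, beside -0.0022 over all named genes. Of the 39 genes 19 were higher in mean with free Ub and 20 lower, and 44.3% of all named genes were higher. By limma at an unadjusted p under 0.05, 2 members were lower, E2f1 and Kif20a (3.4% of all named genes were), and 0 were higher (2.34% of all named genes were). These 2 were also the only members whose 3 free Ub values all lay on one side of the 3 PBS values, a separation seen in the lower direction in 5.02% of named genes and in the higher direction in 3.74%. After Benjamini-Hochberg adjustment over all 45281 probes 0 of the 39 members passed, beside 11 of all named genes (0.0577%). The counts of members are close to these shares of all genes. The methods' threshold, a fold change above 2 with an unadjusted p under 0.05, was passed by 1 member, Kif20a, and by 2.19% of named genes. An exact permutation test of 3 against 3 mice cannot go below p = 0.1.

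**Figure D1:**
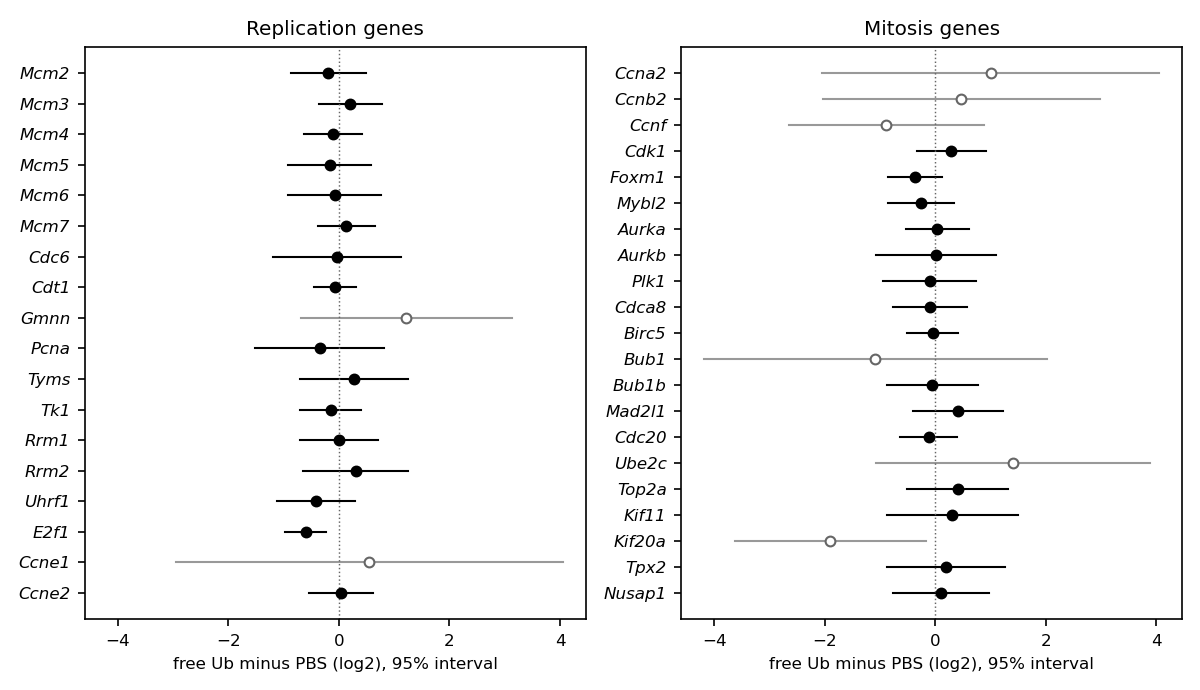
Difference in log2 signal, free Ub minus PBS, for the 18 replication genes (left) and the 21 mitosis genes (right), with 95% intervals from limma, n = 3 mice per group. Filled points are the 31 genes with a mean signal above 4 and open points the 8 dimmer ones, whose intervals are wider, and the intervals of E2f1 and Kif20a alone lie wholly below 0.

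Signal strength set how much could be seen. The 31 members with a mean above 4 had a median SD within groups of 0.35, against 0.225 over all 8861 named genes with such a mean. The typical member thus varied more between mice than the typical gene with a mean above 4. The 8861 genes were not matched to the members for brightness within that range. For 21 of the 31 the 95% interval of the difference lay within 1 log2 of 0 on either side. The other 8 members (Gmnn, Ccne1, Ccna2, Ccnb2, Ccnf, Bub1, Ube2c and Kif20a) had means of 4 or under, and 7 members were at the floor, within 0.01 of the array's lowest value, on at least 1 array. Among the 31 brighter genes 14 were higher with free Ub, where 46.6% of the 8861 were, and 17 were lower. The median difference was -0.07 over 16 replication genes and 0.02 over 15 mitosis genes, beside -0.02 over the 8861. Of these 31 only E2f1 passed an unadjusted p under 0.05 or had groups that did not overlap. Of the 8861 genes 3.94% passed and 6.17% did not overlap in the lower direction, and 2.65% and 4.58% in the higher.

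E2f1, the founding E2F factor of S phase entry, had the smallest p of the 39 genes. Its log2 signal was 5.81, 5.88 and 5.57 in PBS 1 to 3 and 5.24, 4.93 and 5.29 in free Ub 1 to 3. Every free Ub mouse lay below every PBS mouse. The means were 5.75 ± 0.16 and 5.15 ± 0.19 (SD, n = 3 per group), a difference of -0.60 (95% interval -0.97 to -0.23) or 1.52-fold, with an unadjusted p of 0.00926 and an adjusted p of 0.633 in limma. The genes that E2F factors are known to switch on did not show the same separation, as the values of the licensing and synthesis genes below show. The E cyclins, which bring Cdk2 to the origins, did not separate either. Ccne2 differed by 0.04 (95% interval -0.54 to 0.62), and Ccne1 was dim, with values between 0.01 and 4.14 and PBS 1 at the floor.

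The licensing genes, which load the helicase, were among the brighter members. Mcm4, the brightest of them, measured 9.14, 8.80 and 8.72 in PBS 1 to 3 and 8.45, 8.97 and 8.91 in free Ub 1 to 3. The groups overlapped fully apart from the low value of free Ub 1, and the difference was -0.11 ± 0.20 (SE). The other helicase subunits differed by -0.19 (Mcm2), 0.21 (Mcm3), -0.17 (Mcm5), -0.08 (Mcm6) and 0.14 (Mcm7). Cdc6 and Cdt1, the loading factors, differed by -0.03 and -0.07. Gmnn, geminin, the inhibitor of Cdt1, had the largest difference of the licensing genes at 1.22, but its probe was dim. It measured 1.63, the floor and 2.25 with PBS and 3.23, 2.33 and 1.98 with free Ub, so the groups overlapped (95% interval -0.69 to 3.13). Over the 8 licensing genes with a mean above 4 the median difference was -0.07, and 0 of the 9 passed an unadjusted p under 0.05.

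Among the genes of DNA synthesis and nucleotide supply 0 of 6 passed an unadjusted p under 0.05, and the median difference was -0.07. Uhrf1, which brings the maintenance methyltransferase to newly copied DNA, was both the brightest and the one with the largest difference. It measured 8.79, 8.28 and 8.46 with PBS and 7.64, 8.45 and 8.21 with free Ub, where free Ub 1 and free Ub 3 lay below every PBS mouse and free Ub 2 lay within their range (difference -0.41, 95% interval -1.12 to 0.29). Pcna, the sliding clamp of the polymerases, differed by -0.35. Tyms (thymidylate synthase) differed by 0.28 and Tk1 (thymidine kinase) by -0.15. The ribonucleotide reductase subunits, Rrm1 and Rrm2, differed by 0.01 and 0.30. Another probe of Rrm2, somewhat dimmer, measured 5.28, 4.997 and 4.98 with PBS and 5.30, 5.49 and 5.46 with free Ub, every free Ub mouse above every PBS mouse by a narrow margin (difference 0.33, with an unadjusted p of 0.0319 in limma). It is not in the counts above, which take the brightest probe of a gene.

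Cdk1 and the transcription factors of G2 and M phase did not separate between the groups. Cdk1 measured 7.27, 7.05 and 7.70 with PBS and 7.30, 7.79 and 7.79 with free Ub. The top PBS mouse, PBS 3, lay within the range of the free Ub mice, and the difference was 0.29 (95% interval -0.34 to 0.92). Foxm1 differed by -0.37 on its brightest probe (95% interval -0.86 to 0.12) and by 0.04 on its other probe, and Mybl2 by -0.26. The cyclins of this stage were dim. Ccna2 (cyclin A2) was at the floor in PBS 1, PBS 2 and free Ub 1 and measured 2.21 in PBS 3, 3.39 in free Ub 2 and 1.84 in free Ub 3. Ccnb2 (cyclin B2) differed by 0.47 and Ccnf (cyclin F, a subunit of an SCF ubiquitin ligase) by -0.88, both with 95% intervals that hold 0.

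The mitotic kinases and the chromosomal passenger complex, which corrects faulty attachments of chromosomes, gave 5 bright genes with small differences. Cdca8 (borealin) differed by -0.10, Aurka (Aurora A) by 0.04 and Aurkb (Aurora B) by 0.02. Birc5 (survivin, a passenger subunit) measured 8.61, 8.43 and 8.47 with PBS and 8.11, 8.63 and 8.64 with free Ub. Plk1 measured 8.57, 7.78 and 8.31 with PBS and 7.63, 8.34 and 8.38 with free Ub. In both genes free Ub 1 was the lowest of the 6 mice, and the differences were -0.04 (95% interval -0.51 to 0.42) for Birc5 and -0.10 (95% interval -0.94 to 0.74) for Plk1.

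Of the spindle checkpoint and the anaphase-promoting complex, the ubiquitin ligase that it restrains, 5 genes were measured and 0 passed an unadjusted p under 0.05. Cdc20, the brightest of all members, measured 9.34, 9.09 and 9.32 with PBS and 8.75, 9.29 and 9.34 with free Ub (difference -0.12, 95% interval -0.63 to 0.39). Again free Ub 1 stood below the rest. The checkpoint proteins Mad2l1 (Mad2) and Bub1b (BubR1) differed by 0.42 and -0.05, and the checkpoint kinase Bub1 by -1.08 on a dim probe. Ube2c, the E2 enzyme of the complex, measured the floor, 2.91 and 2.62 with PBS and 3.89, 3.27 and 2.61 with free Ub. Its difference of 1.41 rests on dim values and on PBS 1 at the floor (95% interval -1.07 to 3.89).

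Among the genes of the spindle and of chromosome structure Kif20a stood apart, and its probe was dim. This kinesin of cytokinesis measured 3.25, 1.06 and 2.20 with PBS and 0.84 in free Ub 1, and it was at the floor in free Ub 2 and 3. The lowest PBS mouse and the highest free Ub mouse were close, and the difference was -1.90 (95% interval -3.62 to -0.17), with an unadjusted p of 0.0371 and an adjusted p of 0.872 in limma. It was its only probe, and of the 6 fits that left out 1 mouse the unadjusted p stayed under 0.05 only in the fit without PBS 2. Nusap1, which bundles spindle microtubules, measured 8.41, 7.78 and 7.86 with PBS and 7.57, 8.25 and 8.54 with free Ub, a difference of 0.10. Top2a, the topoisomerase that untangles sister chromatids, differed by 0.41 on its brightest probe and by -0.20 and -0.08 on the others. Kif11 (the motor that separates the spindle poles) and Tpx2 (an activator of Aurora A) differed by 0.31 and 0.19. Of the 11 members with more than 1 probe of mean above 4, 7 had probes whose differences were of opposite sign.

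**Figure D2:**
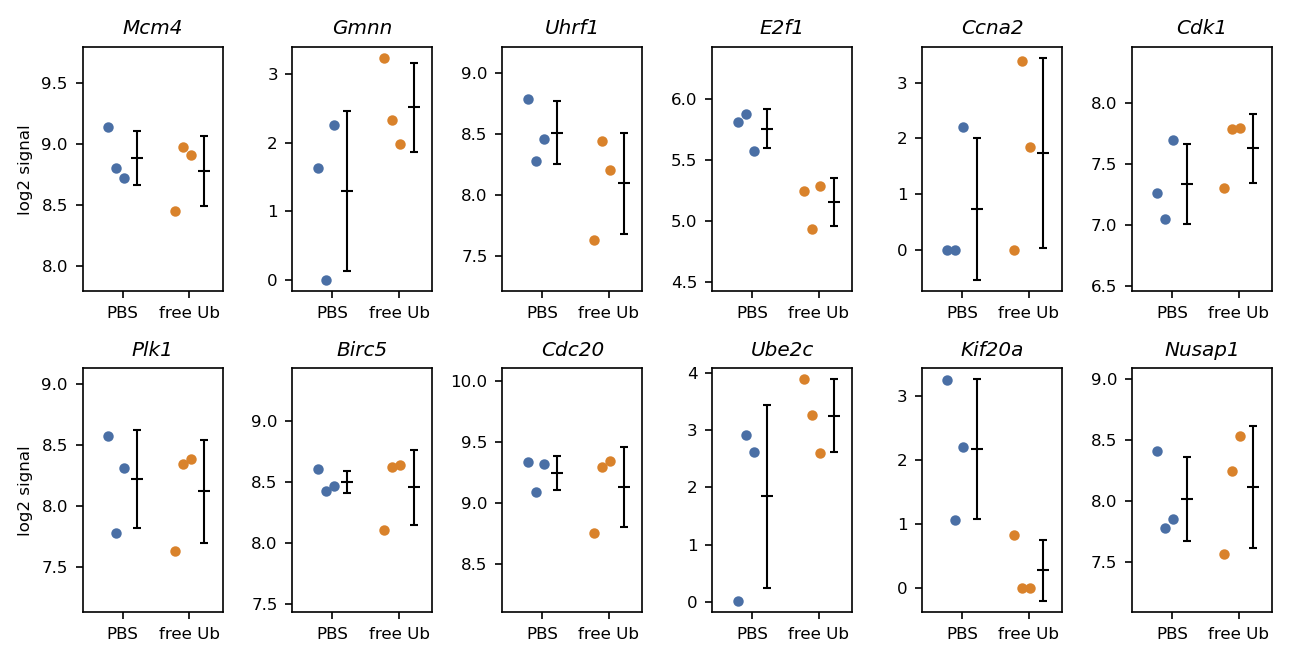
Log2 signal of 12 members in each of 3 PBS and 3 free Ub mice, points from left to right being mice 1 to 3 of a group, with the group mean (tick) and SD (bar). The vertical axes differ in range, and the groups are apart only for E2f1 and Kif20a.

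The differences between mice were larger than those between the groups and ran in the same direction across most of the genes. Over the 31 members with a mean above 4, the median deviation from a gene's own mean was 0.24, -0.15 and 0.06 in PBS 1 to 3 and -0.38, 0.18 and 0.23 in free Ub 1 to 3. The same medians over the 8861 genes of such a mean lay between -0.03 and 0.04. Free Ub 1 was therefore the low mouse for these genes and PBS 2 the next. The arrays as a whole were level, which the authors' normalization brings about (upper quartile 5.32 on every array). That level cannot show that the arrays were alike before it. Free Ub 1 lay below the gene's mean in 31 of 31 members (54.5% of all genes with a mean above 4) and was the lowest of the 6 mice in 21 of them. PBS 2 lay below the mean in 23 of the 31 and was lowest in 5. The highest mouse was free Ub 3 for 12 members, PBS 1 for 10 and free Ub 2 for 7.

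**Figure D3:**
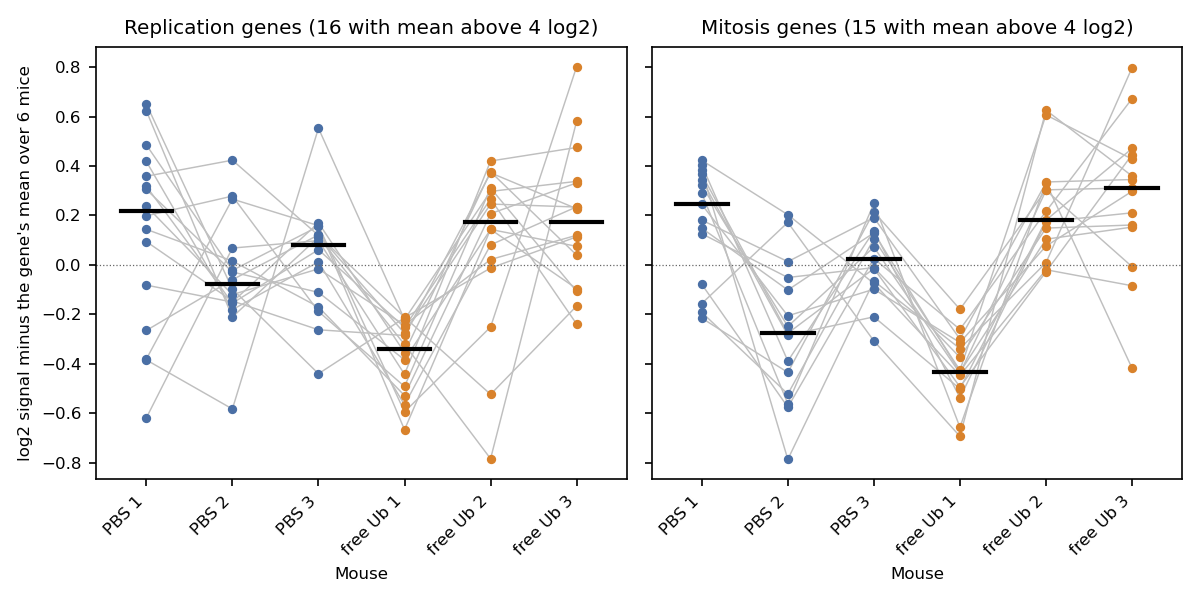
Log2 signal minus the gene's mean over the 6 mice, for the 16 replication genes (left) and the 15 mitosis genes (right) with a mean above 4. Points are genes, grey lines join a gene's values and black bars are medians, which are lowest in free Ub 1, at -0.34 for replication and -0.43 for mitosis.

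Gene by gene, the median range over the 6 mice was 0.94 for the mitosis genes and 0.90 for the replication genes with a mean above 4. The median SD within groups was 0.40 and 0.34. The list medians spread further between mice for the mitosis genes. The median deviations of the mitosis genes were 0.24, -0.28 and 0.03 with PBS and -0.43, 0.18 and 0.31 with free Ub. Those of the replication genes were 0.22, -0.08 and 0.08 with PBS and -0.34, 0.18 and 0.17 with free Ub. In the mitotic kinases and passengers all 5 genes were below their mean in both PBS 2 and free Ub 1. No test of this spread was made, since the order of the mice was read from these same genes.

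Pairs of members varied together across the 6 mice. After the group means were removed, the median Pearson r was 0.786 over 105 pairs of mitosis genes, 0.447 over 120 pairs of replication genes and 0.591 over 240 pairs of one with the other, beside 0.018 over all pairs of the 8861 genes. Without that removal the medians were 0.649, 0.425, 0.51 and 0.015. All pairs share the same 6 arrays and the same low mouse, so they are not independent, and r is given as a description. Aurkb (r = 0.954), Aurka (0.949), Plk1 (0.94), Nusap1 (0.936) and Mcm5 (0.929) followed most closely, over the 6 mice, the median of the other members of their own list, mitosis or replication. Of the other genes whose windows are shown above, Cdc20 had r = 0.904, Cdk1 0.602 and Mcm6 0.455, and high values were also found for genes with no match in their window (Birc5, 0.923, and Nusap1). E2f1 itself (-0.082), Mybl2 (0.214), Cdc6 (0.238) and Rrm2 (0.248) followed the median of their list least.

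**Figure D4:**
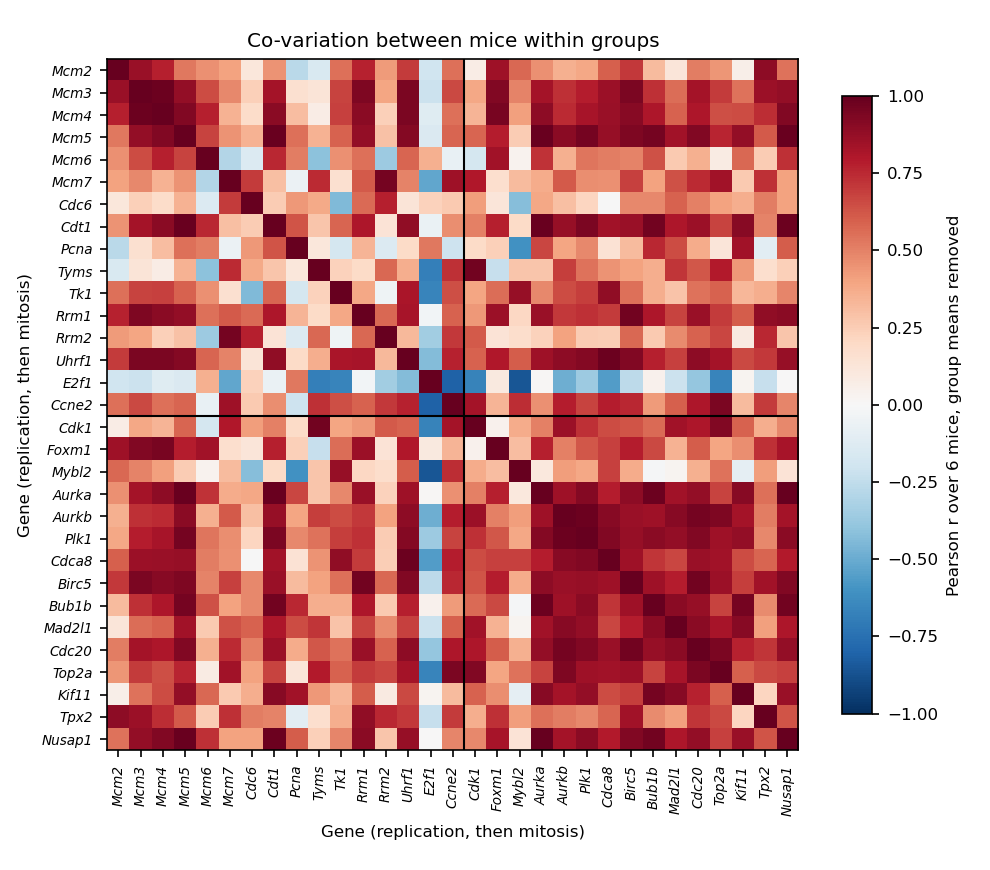
Pearson r between the 31 members with a mean above 4 over 6 mice, after each group's mean was removed, with replication genes before the black lines and mitosis genes after them. Most mitosis genes are red with each other (79% of pairs above 0.5, against 21.5% of all gene pairs), and the row of E2f1 is mostly blue or pale.

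The direction of the medians turned with single mice. Over all 39 genes, the mitosis median turned to -0.08 without PBS 2, -0.04 without PBS 3, -0.13 without free Ub 2 and -0.11 without free Ub 3 and was 0.16 without PBS 1, and the replication median turned to 0.01 without PBS 1. The values moved most without free Ub 1. With that mouse left out, 25 of the 31 brighter members were higher with free Ub and 6 lower, where 50.4% of the 8861 genes were higher. The median difference was then 0.21 over the mitosis genes and 0.06 over the replication genes, beside 0.0021 over the 8861. In limma 3 of the 31 were then higher at an unadjusted p under 0.05 (Mcm3 0.40, Top2a 0.72 and Tpx2 0.59), beside 3.39% of the 8861, and 1 was lower (E2f1 -0.65), beside 5.33%, and 0 passed after adjustment. The values no longer overlapped in 10 members with free Ub higher (Mcm3, Mcm7, Rrm1, Rrm2, Cdk1, Aurkb, Birc5, Mad2l1, Top2a and Tpx2), beside 11.3% of the 8861. In the lower direction only E2f1 did not overlap, beside 13%. Mouse free Ub 1 was left out here because its low values in these genes had been seen, and the labels give no reason to exclude it. The higher values of the members without it follow in part from that choice. The mouse was not chosen for low values in the 8861 genes, so their shares are no like comparison. No conclusion on free Ub is drawn from these counts and p-values.

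In lists of further genes of the same processes free Ub 1 was again the low mouse. PBS 2 was the next in the mitosis list, but it was about level with PBS 3 in the replication list. Of 49 further replication genes 48 had a probe, and the median deviation of the 35 with a mean above 4 was 0.26, -0.05 and -0.04 with PBS and -0.29, 0.04 and 0.11 with free Ub. Of 69 further mitosis genes 67 had a probe, and the 39 brighter ones had medians of 0.17, -0.16 and -0.09 with PBS and -0.30, 0.20 and 0.21 with free Ub. Of the 35 brighter replication genes 12 were higher in mean with free Ub and 23 lower, and their median difference was -0.10. Of the 39 brighter mitosis genes 18 were higher and 21 lower, with a median difference of -0.01. Among the 8861 genes 46.6% were higher, and the median difference was -0.02. The lean of the replication list was not tested. Among the 48 replication genes 1 was higher and 1 lower at an unadjusted p under 0.05. Among the 67 mitosis genes 0 were higher and 1 lower, where 2.34% of all named genes were higher and 3.4% lower. The groups did not overlap in 1 replication gene that was higher and 3 that were lower, and in 1 mitosis gene that was higher (3.74% and 5.02% of all named genes). Timeless, of the fork protection complex, was among the lower ones, at 5.81, 5.23 and 5.32 with PBS and 3.42, 4.66 and 5.08 with free Ub, a difference of -1.07 with free Ub 1 the lowest mouse. Rpa2, a subunit of the single-strand binding protein, measured 5.34, 5.66 and 5.71 with PBS and 5.91, 6.14 and 6.33 with free Ub, every free Ub mouse above every PBS mouse (difference 0.56, unadjusted p of 0.0199 and adjusted p of 0.763 in limma). Chtf18, of a complex that loads the clamp, measured 5.72, 5.46 and 5.41 with PBS and 4.91, 5.15 and 4.92 with free Ub, every free Ub mouse below every PBS mouse (difference -0.54, unadjusted p of 0.00824 and adjusted p of 0.607 in limma). Lmnb1, lamin B1 of the nuclear lamina, measured 7.51, 7.23 and 7.61 with PBS and 6.93, 6.81 and 7.24 with free Ub, and the groups overlapped slightly (difference -0.45, unadjusted p of 0.0419 and adjusted p of 0.872 in limma).

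Some markers of the crypt base were lowest in the same mouse, and others were not. Olfm4, a marker of crypt stem cells, measured 7.43, 7.15 and 8.90 with PBS and 6.47, 8.78 and 8.81 with free Ub, and Lyz1, the lysozyme of Paneth cells, 14.14, 14.04 and 14.49 with PBS and 13.34, 14.49 and 14.49 with free Ub, where 14.49 is the top value of the arrays. Axin2, a Wnt target of the stem cell list, measured 6.88, 6.96 and 7.12 with PBS and 7.17, 7.43 and 7.62 with free Ub. Every free Ub mouse, free Ub 1 among them, lay above every PBS mouse (unadjusted p of 0.0346 and adjusted p of 0.872 in limma). Over the 3 of 6 stem cell markers with a mean above 4 the median deviation was -0.35, -0.23 and 0.36 with PBS and -0.56, 0.42 and 0.42 with free Ub. The summed signal of all 6 ranged from 8.30 to 9.40 log2 with PBS and from 8.05 to 9.49 with free Ub, and the probe of Smoc2 was at or near the floor on most arrays. The 3 measured of 4 Paneth markers summed to 14.12 to 14.62 with PBS and 13.46 to 14.67 with free Ub, and the 9 epithelial markers to 15.10 to 15.34 and 15.28 to 15.43. In free Ub 1 the 8 epithelial markers with a mean above 4 had a median deviation of -0.11, beside -0.14 in PBS 3. In that mouse 5 of them lay below their mean. Cdx2, a transcription factor of intestinal identity, measured 9.86, 9.79 and 9.83 with PBS and 9.42, 9.67 and 9.57 with free Ub. It was lowest in free Ub 1, and every free Ub mouse lay below every PBS mouse (unadjusted p of 0.0181 and adjusted p of 0.75 in limma). The pancreas markers Cela1 and Cpa1, 2 of 4 listed, summed to 10.72 to 14.67 with PBS and 8.07 to 14.48 with free Ub, with PBS 3 and free Ub 1 at the high end. The erythroid marker Hba-a1 was highest in free Ub 1 at 10.40 and lowest in PBS 2 at 9.07, both of them mice that were low for the S phase and mitosis genes. Alas2 and Klf1, the other measured erythroid markers, were dim. They were highest in free Ub 3, at 2.74 and 3.31, and at the floor in PBS 2. T cell, myeloid and smooth muscle markers did not have their lowest summed signal in free Ub 1. The 2 endothelial markers with a mean above 4 had a median deviation of -0.36 in free Ub 1 and -0.37 in PBS 1, and between 0.20 and 0.23 in PBS 2, PBS 3 and free Ub 2. The part of any of these cell types in the differences between mice was not tested.

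**Figure D5:**
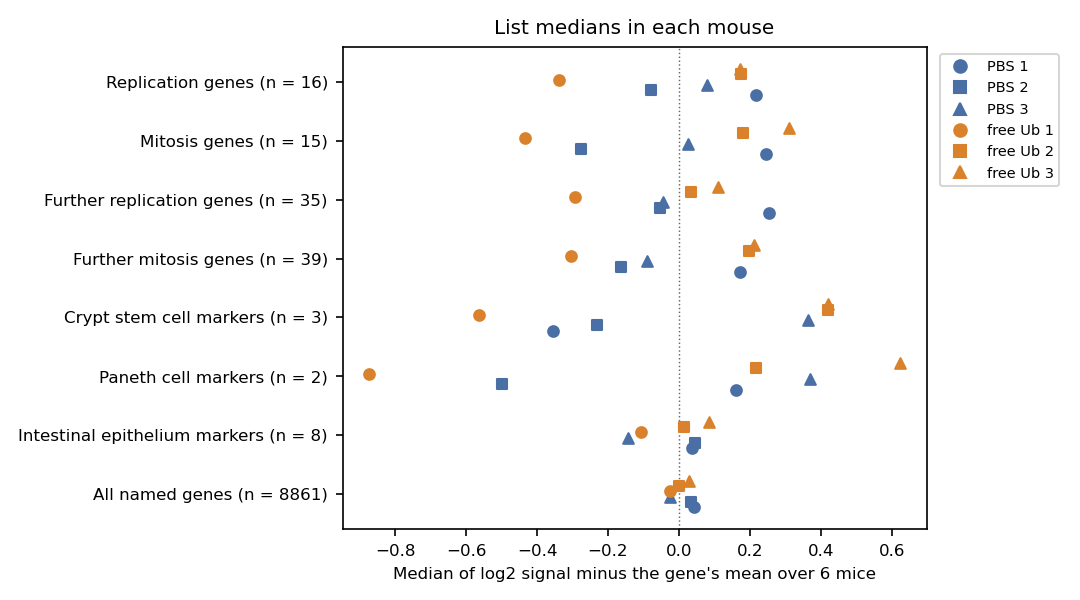
Median over each list, in each mouse, of log2 signal minus the gene's mean over the 6 mice, for genes with a mean above 4 (n in brackets). Free Ub 1 (orange circles) is lowest in the replication, mitosis, stem cell and Paneth lists, at -0.34, -0.43, -0.56 and -0.87. All named genes, which the normalization makes level, lie between -0.03 and 0.04.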

How the data were processed

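Intestinal RNA of 3 PBS and 3 free Ub mice was hybridized to Illumina MouseWG-6 v2 BeadChips, 1 array per mouse, and samples were grouped by their labels. The deposited values are read as log2 signals: the authors processed the raw data in GenomeStudio with cubic-spline normalization, the log base was taken from the highest value (14.5) because no source used here states it, and the background handling is not given in the sources used here. The 6 arrays have equal upper quartiles, between 32.2% and 33.7% of the probes of an array lie at a floor near 0, and dim probes are the least precise. With 3 arrays per group their number limits the precision. The table holds 0 columns of no sample.

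Probes were named through the platform annotation (34885 of 45281 with 1 symbol), and a gene was read on its brightest probe by mean signal. All probes were fitted with limma 3.58.1 under R 4.3.3, by lmFit and then eBayes, as free Ub minus PBS, two-sided and with no covariate, with Benjamini-Hochberg adjustment over the table. Gene counts and medians come from the same fit. The procedure was tested on simulated data. The members, the further lists and the markers were chosen with earlier results of these data known, and the limit of 4 log2 after the values were seen. Named in full were members past an unadjusted p under 0.05 or without overlap of the groups, and, in each functional subgroup, the brightest and the one with the largest difference. Of the further genes up to 4 with the smallest p were eligible, and those under 0.05 are described. Olfm4, Lyz1, Axin2, Cdx2, Hba-a1, Timeless, the dimmer Rrm2 probe and the mouse left out were picked after their values were seen. Alternatives were quantile normalization, median centring, a floor of 4 log2, filters on dim probes, the mean of a gene's probes, an intensity trend, array weights, a replicate block, the methods' t-test paired and unpaired, and leaving out each mouse.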

Additional observations from a re-analysis of the deposited data

How the results depend on the processing

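No member passed an adjusted p under 0.05 in limma or the t-tests under any of these settings. The count at an unadjusted p under 0.05 was 2. It became 1 (E2f1) with values under 4 log2 raised to 4 and with probes at or under the median of probe means left out. It also became 1 (E2f1) with only probes above the floor on all 6 arrays and with the unpaired t-test. Over members with a mean above 4, a restriction chosen after seeing the data, it was 1 (E2f1) too. The count past a fold of 2 was 1 and became 0 under the same 5 settings and 2 (Bub1 and Kif20a) when the probes of a gene were averaged. Members without overlap numbered 2 and became 1 with the floor of 4 and over members with a mean above 4. Leaving out 1 mouse gave 1 to 5 members at an unadjusted p under 0.05 (5 without free Ub 1, 1 without PBS 1, PBS 3 or free Ub 3, and 2, E2f1 and Mybl2, without free Ub 2), 0 to 1 past a fold of 2 (0 without PBS 1, PBS 3, free Ub 2 or free Ub 3, and Ccnf in place of Kif20a without free Ub 1) and 2 to 13 without overlap (13 without free Ub 1, 7 without PBS 3, 6 without free Ub 2 and 5 without free Ub 3). Groups with fewer mice fail to overlap more often in any gene. Without free Ub 1, 11.3% of the 8861 genes with a mean above 4 did not overlap in the higher direction and 13% in the lower. With all 6 mice these shares were 4.58% and 6.17%. Shares of all genes were taken for no other mouse left out, so these counts are no result about the members. Leaving out 1 mouse moved the replication median between -0.15 and 0.15 and the mitosis median between -0.13 and 0.21. The highest values were those without free Ub 1, and the lowest those without free Ub 3 (replication) or free Ub 2 (mitosis). The SD of the array medians in a group was 0.218 for replication and 0.306 for mitosis. Leaving out a mouse can move a group mean only by part of such an SD, so the SD cannot show that these moves are small. With a replicate block in limma, and with the paired t-test, the count stayed at 2 but held Kif20a and Rrm2, and E2f1 had an unadjusted p of 0.0513 and 0.0883. Deviations of same-numbered mice had r of -0.07, -0.09 and -0.40, and those of mice with other numbers had r between -0.26 and 0.31. Deviations sum to 0 within each group, so these r cannot decide whether the mice pair by number. Kif20a lost its unadjusted call with the unpaired t-test (unadjusted p of 0.0518) and without any single mouse other than PBS 2 (unadjusted p of 0.0519 to 0.104). With the mean of their probes Mcm4 (0.21) and Cdc20 (0.22) turned positive. The cause was not tested. Dim probes limit the cyclins, Bub1, Ube2c and Kif20a the most.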
